A study of Rattus norvegicus with 167 samples.

Results

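The 8 genes of the neurotrophin and GDNF systems described here through spinal cord injury are the ligand genes Ntf3, Bdnf and Gdnf, and the receptor genes Ngfr, Ntrk2, Ntrk3, Gfra1 and Ret. They are 8 of the 14218 genes that have a probe set with a single gene symbol on the array, and each gene was read from its probe set with the highest mean level. In adult female Wistar rats the thoracic cord was cut through and a segment of 5 mm was taken out. In the NT3 group the gap was filled with a chitosan tube loaded with the protein neurotrophin-3, in the empty tube (ET) group with the same kind of tube without the protein, and in the lesion control (LC) group with nothing. All 3 injured groups therefore share the transection and the lost segment, and the fourth group is uninjured cord from a single set of 3 arrays that carry no level of the cord in their labels. Tissue pieces of 5 mm came from the lesion site and from the cord rostral and caudal to the gap. Days 1, 3, 10, 20, 30, 60 and 90 were sampled, except that lesion site arrays began on day 3 and the ET group had lesion site arrays on day 3 alone.

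The arrays comprised 21 NT3, 20 ET and 21 LC arrays rostral to the gap, 18 NT3, 3 ET and 18 LC arrays at the lesion site, 21 arrays of each group caudal to it, and 3 uninjured arrays. Of the 56 groups, 55 had 3 arrays and 1 (rostral ET, day 10) had 2. Levels are log2 values that the authors computed with RMA. Array medians ran from 7.10 to 7.25, and the small number of arrays in a group limits the precision of every value. A difference is the log2 level in the first group minus that in the second. A gene was called where the moderated test of limma gave an adjusted p under 0.05 over all 12041 genes that passed a filter on low levels. The labels do not say whether arrays of a group come from separate animals, so the p-values measure the spread between these arrays. A set of 3 arrays stood apart in earlier results of these data: uninjured replicate 2, the NT3 lesion site array of day 3 numbered 1 and the LC lesion site array of day 20 numbered 5. Calls that turn on them are named. The class I gene RT1-CE10 also separated arrays by whole groups: it lay above 9 in all arrays of 17 groups, in some of 4 and in none of 35. What this split marks is not given in the sources used here. At the lesion site it runs with the groups on some days: 0 of 3 NT3 and 3 of 3 LC arrays lay above 9 on day 90, 0 of 3 NT3 and 2 of 3 LC arrays on days 3 and 20, and no uninjured array. With group means in the model, a covariate for RT1-CE10 is estimated only from groups with some arrays above 9. These are LC of day 3 in each segment and LC of day 20 at the lesion site. Elsewhere it cannot be told apart from the group, so a call lost with it does not show dependence on RT1-CE10. In whole tissue, fewer cells of a type and less RNA per cell cannot be told apart. The lesion site lost the markers of cord: all 9 tested neuron markers and all 6 oligodendrocyte markers were lower in LC lesion sites on days 10 to 30 than in uninjured cord, while all 6 fibroblast markers were higher. Of all tested genes, 37.1% were called lower and 41.9% higher in that comparison.

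Neurotrophins are secreted proteins that sustain neurons and shape their axons and synapses. Each binds a receptor tyrosine kinase of the Trk family, TrkB (Ntrk2) for brain-derived neurotrophic factor and TrkC (Ntrk3) for neurotrophin-3, and all bind the p75 receptor (Ngfr), which also takes up uncleaved precursors. GDNF binds the membrane-anchored co-receptor GFRα1 (Gfra1), and this pair engages the receptor tyrosine kinase RET, a route known for keeping motor neurons and subsets of sensory neurons alive. The tube delivered neurotrophin-3 as protein, whereas the array reads the messenger RNA of the rat.

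Promoters in the RefSeq table of the assembly GRCr8, each with 250 bases before and 50 bases after the transcript start, were matched for 5 of the 8 genes: Ntf3, Bdnf, Gdnf, Gfra1 and Ret. They were searched on both strands for 4 motifs: AP-1 (TGANTCA, found in 7.33% of all 33469 promoters in the table), CRE (TGACGTCA, 1.83%), EGR (GCGNGGGCG, 4.98%) and the GC box (GGGCGG, 33.1%). In these patterns N stands for any base, so an AP-1 match here means the printed pattern with any base at its centre. Such a match, with A at the centre, stood in 1 of the 6 Bdnf promoters and in no promoter of the other 4 genes. No member had a CRE or EGR match, and a GC box stood in promoters of Ntf3, Bdnf and Gfra1. Of the members tested below, Ntrk2, Ntrk3 and Ngfr have no promoter in the table, while Bdnf, Gfra1 and Ret do. Promoters of these last 3 genes are shown, and for Bdnf the promoter with the AP-1 match was chosen among its 6. They are the Bdnf promoter with the AP-1 match in capitals (chr3:116621721-116622020, plus strand), that of Gfra1 with its 2 GC boxes in capitals (chr1:267555762-267556061, minus strand) and that of Ret, which has no match among these motifs and a GC content of 74% (chr4:153040507-153040806, minus strand).
Bdnf: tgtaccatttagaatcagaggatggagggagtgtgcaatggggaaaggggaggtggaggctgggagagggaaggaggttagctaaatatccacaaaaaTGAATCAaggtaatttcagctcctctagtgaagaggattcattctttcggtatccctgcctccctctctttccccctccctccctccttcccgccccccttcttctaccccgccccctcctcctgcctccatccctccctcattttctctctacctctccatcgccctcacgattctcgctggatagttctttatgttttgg
Gfra1: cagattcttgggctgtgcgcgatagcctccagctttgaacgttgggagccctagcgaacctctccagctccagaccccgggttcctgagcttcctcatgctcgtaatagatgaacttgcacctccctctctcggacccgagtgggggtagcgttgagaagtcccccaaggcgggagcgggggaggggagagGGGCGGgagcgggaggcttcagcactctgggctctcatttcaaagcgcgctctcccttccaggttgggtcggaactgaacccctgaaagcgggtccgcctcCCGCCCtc
Ret: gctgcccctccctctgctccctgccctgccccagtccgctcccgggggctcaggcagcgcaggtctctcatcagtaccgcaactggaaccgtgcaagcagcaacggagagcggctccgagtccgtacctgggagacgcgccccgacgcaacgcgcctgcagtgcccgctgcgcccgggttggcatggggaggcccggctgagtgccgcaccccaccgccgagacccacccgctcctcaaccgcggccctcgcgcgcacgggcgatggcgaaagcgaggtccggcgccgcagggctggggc
A match is a description of the letters and says nothing of binding in these tissues.

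**Figure D1:**
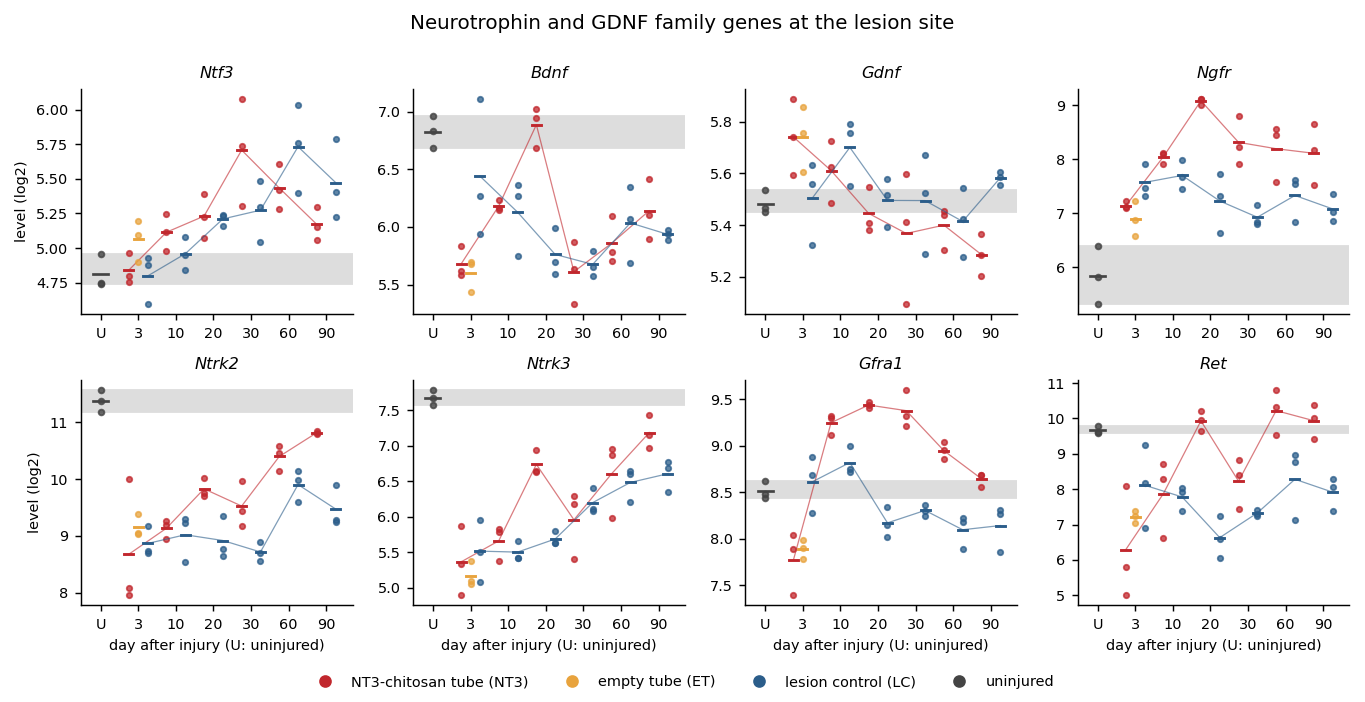
Levels (log2) of the 8 genes at the lesion site by day after injury, 1 panel per gene, with NT3 left of ET and ET left of LC within a day and the uninjured arrays (U) at the far left. Points are single arrays, bars are group means, thin lines join the means of a group and the grey band spans the 3 uninjured arrays. Ngfr lies above the band in all injured arrays and Ntrk2 and Ntrk3 lie below it, while Ret lies around the band in NT3 lesion sites on days 20, 60 and 90 and under it in all LC lesion sites.

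Ntf3, the gene of neurotrophin-3 itself, was dim. Its probe set (1387267_at) had a mean level of 4.92 over all arrays, ran from 4.40 to 6.08 and lay above the filter level (6.49 to 6.60, depending on the array) in 0 arrays, so it took no part in the tests. Its level was 4.97, 4.76 and 4.80 in the NT3 lesion sites of day 3, 5.31, 5.74 and 6.08 on day 30 and 5.06, 5.15 and 5.30 on day 90. In LC lesion sites it was 4.88, 4.92 and 4.59 on day 3, 5.04, 5.30 and 5.48 on day 30 and 5.79, 5.22 and 5.41 on day 90, against 4.96, 4.75 and 4.74 in uninjured cord. From day 10 on most arrays of both groups therefore lay above uninjured cord: over all days 16 of 18 NT3 and 13 of 18 LC lesion sites were above its highest array. On no day were all NT3 lesion sites above or all below the LC lesion sites. Outside the lesion site the level stayed between 4.40 and 5.22 in all 3 groups. With no filter on low levels, limma gave LC minus uninjured at the lesion site as 0.33 on days 10 to 30 (adjusted p = 0.0233) and 0.79 on days 60 and 90 (adjusted p = 6.98e-06), and NT3 minus LC over all days as 0.01 (adjusted p = 0.933).

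Gdnf, the gene of glial cell line-derived neurotrophic factor, was also below the filter level in all arrays (probe set 1369598_at, mean 5.44, range 4.75 to 5.89). Its lowest, median and highest levels at the lesion site were 5.09, 5.45 and 5.89 in 18 NT3 arrays and 5.28, 5.55 and 5.79 in 18 LC arrays, against 5.45, 5.46 and 5.53 in the 3 uninjured arrays. The ranges over all days overlap. All NT3 arrays were above all LC arrays on 0 of 6 days and below them on 1, day 90. On day 3 the level was 5.74, 5.89 and 5.59 with NT3 and 5.76, 5.86 and 5.61 with ET, all above the highest uninjured array, and on day 90 it was 5.21, 5.37 and 5.29 with NT3, all below the LC arrays at 5.56, 5.61 and 5.59. With no filter, NT3 minus uninjured on day 3 was 0.26 (limma, adjusted p = 0.038). Also with no filter, the difference of NT3 minus LC at the lesion site was -0.06 over all days (limma, adjusted p = 0.338), and on day 90 it was -0.30 (adjusted p = 0.0468).

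Bdnf, the gene of brain-derived neurotrophic factor (probe set 1368677_at), stood near the filter level: 67 arrays lay above it. Its other probe set (1368678_at, mean 5.19) lay above that level in 0 arrays and was not tested. The 2 probe sets had a Pearson's r of 0.49 over the 56 group means, so the values below rest on 1 probe set. Bdnf was high on the first day beside the gap and low later. On day 1 its level in rostral pieces was 8.07, 7.54 and 7.90 with NT3, 7.90, 7.67 and 7.79 with ET and 7.66, 6.98 and 6.90 in LC, and in caudal pieces 7.59, 8.07 and 7.75 with NT3, 7.25, 7.64 and 7.13 with ET and 7.90, 8.07 and 8.24 in LC, against 6.69, 6.96 and 6.83 in uninjured cord. All day 1 arrays except 1 rostral LC array thus lay above the highest uninjured array, although 1 more rostral LC array exceeded it by only a small margin. By day 90 caudal LC pieces had 6.01, 5.89 and 6.05 and rostral LC pieces 6.43 in each of the 3 arrays, all below uninjured cord.

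In the tests, the mean of days 1 and 3 of Bdnf in caudal LC pieces was higher by 0.68 (SE 0.16, n = 6 against 3, limma adjusted p = 0.000209), with a mean level of 8.07 on day 1 and 6.94 on day 3 against 6.83 in uninjured cord. Caudal Bdnf fell on days 10 to 30 by 0.41 (SE 0.15, adjusted p = 0.0157) and on days 60 and 90 by 0.88 (SE 0.16, adjusted p = 5.89e-06), all relative to uninjured cord. The call of days 10 to 30 was lost without uninjured replicate 2 (-0.34, adjusted p = 0.0954). That of days 1 and 3 was lost when RT1-CE10 was a covariate (0.52, adjusted p = 0.123). In rostral LC pieces the mean of days 1 and 3 differed from uninjured cord by 0.00, which averages a mean level of 7.18 on day 1, above the uninjured mean of 6.83, and 6.48 on day 3, below it. Rostral Bdnf fell by 0.36 on days 60 and 90 (adjusted p = 0.0288), a call lost without LC day 60 replicate 3 (-0.33), uninjured replicate 2 (-0.29) or uninjured replicate 3 (-0.36). Rostral minus caudal LC pieces differed by -0.68 on days 1 and 3 (SE 0.12, adjusted p = 0.00162) and by 0.52 on days 60 and 90 (SE 0.12, adjusted p = 0.0153). The second of these was lost without caudal LC day 60 replicate 1 (0.43), caudal LC day 90 replicate 2 (0.50) or rostral LC day 60 replicate 2 (0.48). The first was lost when these 2 groups of arrays were fitted alone (adjusted p = 0.151).

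In LC lesion sites Bdnf did not pass on day 3 (-0.38, adjusted p = 0.0846), but passed without LC day 3 replicate 2 (-0.72, adjusted p = 0.000877). It fell by 0.97 on days 10 to 30 (SE 0.16, adjusted p = 3.05e-06) and by 0.84 on days 60 and 90 (SE 0.17, adjusted p = 6.75e-05). Day 20 stood out among the NT3 lesion sites, with 6.69, 7.03 and 6.95 against 5.99, 5.69 and 5.60 in LC lesion sites, and the NT3 arrays of that day covered about the same range as uninjured cord. On day 3 the order was the other way round, with 5.84, 5.61 and 5.59 in NT3 lesion sites and 5.69, 5.43 and 5.68 in ET lesion sites, against 6.27, 7.11 and 5.94 in LC lesion sites. NT3 minus LC was 1.13 on day 20 (SE 0.20, limma adjusted p = 5.63e-05) and -0.76 on day 3 (SE 0.20, adjusted p = 0.00795), and it averaged 0.06 over all days (adjusted p = 0.562). The call of day 3 was lost without LC day 3 replicate 2 (-0.43, adjusted p = 0.143). ET minus LC of that day was -0.84 with all arrays (SE 0.20, adjusted p = 0.00313), -0.50 without the same array (adjusted p = 0.0571) and -0.72 with RT1-CE10 as a covariate (adjusted p = 0.0602).

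Rostral to the gap Bdnf was the one member called in NT3 relative to both other groups. Its lowest, median and highest levels were 6.37, 6.70 and 8.07 in 21 NT3 pieces, against 5.72, 6.40 and 7.90 in 20 ET pieces and 6.16, 6.56 and 7.66 in 21 LC pieces. The ranges overlap, but the mean was higher with NT3 on 7 of 7 days in both comparisons. NT3 minus LC was 0.21 (SE 0.06, limma adjusted p = 0.0463), a call that was lost in 32 of the 42 fits with 1 array left out, where the difference ran from 0.19 to 0.22. NT3 minus ET was 0.34 (SE 0.06, adjusted p = 5.4e-05). Caudal to the gap NT3 minus LC averaged -0.06 over the days but changed with the day (F-test of limma, adjusted p = 0.0348), with 5.82, 6.05 and 6.59 in NT3 pieces of day 3 against 7.03, 6.98 and 6.81 in LC pieces. That F-test was lost in 7 of the 42 fits with 1 array left out, with adjusted p-values from 0.0519 to 0.125, and with RT1-CE10 as a covariate (adjusted p = 0.104). The arrays were NT3 day 3 replicate 1 or 2, NT3 day 20 replicate 2 or 3, LC day 3 replicate 1 or 2 and LC day 20 replicate 2.

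**Figure D2:**
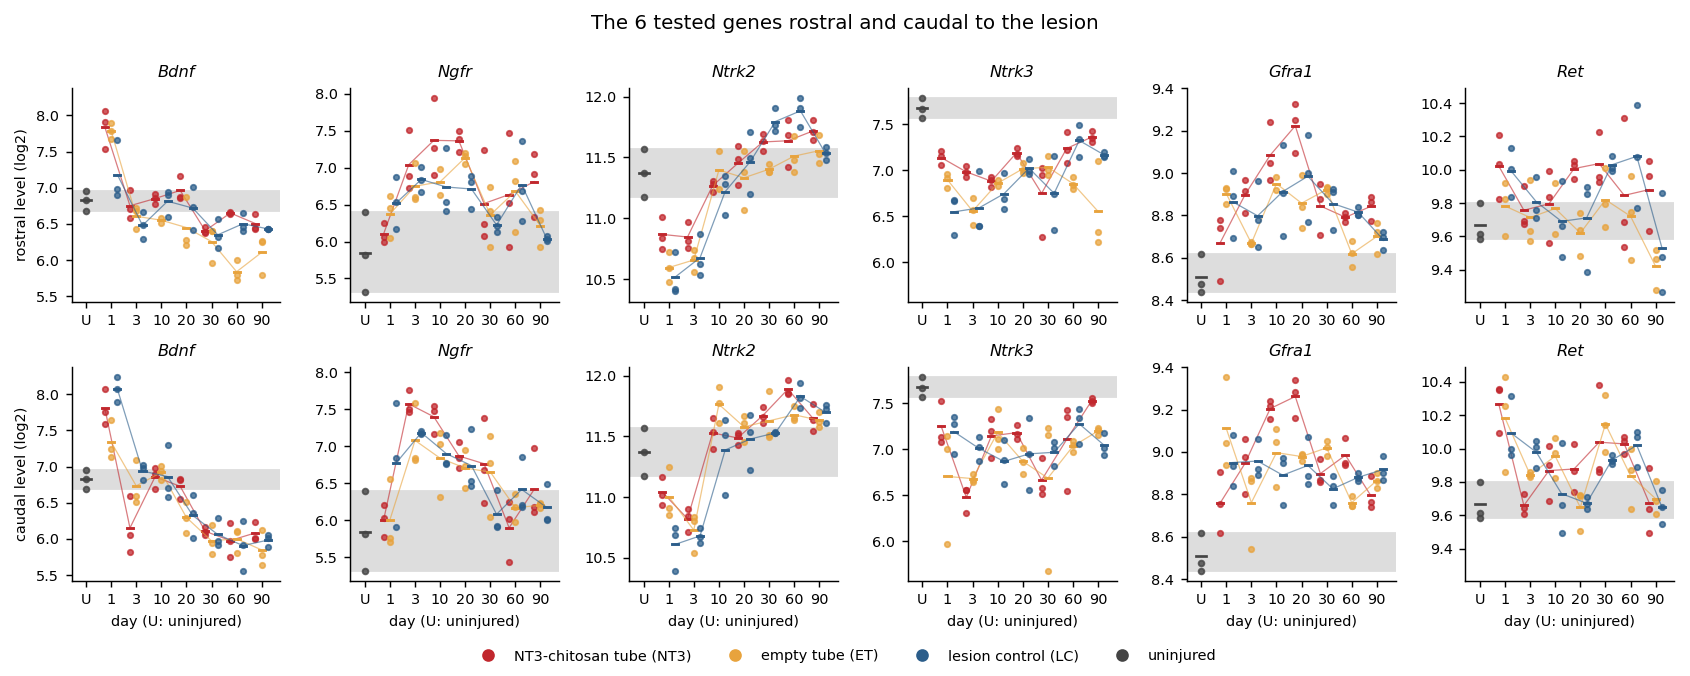
Levels (log2) of the members in rostral and caudal pieces by day, with NT3 left of ET and ET left of LC within a day and the 3 uninjured arrays (U) as points and a grey band. Points are single arrays, bars are group means and thin lines join the means of a group. Bdnf is highest on day 1 in both segments, Ntrk2 is under the band on days 1 and 3 save in 1 caudal ET array at 11.25, and Ntrk3 is under it on all days.

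Ngfr, the gene of the p75 receptor (probe set 1368148_at), was the tested member that was higher at the lesion site than in uninjured cord in every period. Its level at the lesion site was 7.22, 7.09 and 7.11 with NT3, 6.88, 6.58 and 7.22 with ET and 7.47, 7.91 and 7.32 in LC on day 3, against 5.32, 6.39 and 5.82 in uninjured cord. All 39 injured lesion site arrays of all days lay above the highest uninjured array. LC minus uninjured was 1.73 on day 3 (SE 0.29, 3.31-fold, limma adjusted p = 3.33e-06), 1.44 on days 10 to 30 (SE 0.24, adjusted p = 2e-06) and 1.36 on days 60 and 90 (SE 0.25, adjusted p = 1.4e-05). All 3 uninjured levels were under the filter level (6.49 to 6.60), which Ngfr passed in 105 arrays. The sizes of differences from uninjured cord are therefore measured from a dim signal.

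NT3 lesion sites were higher still on most later days. On day 20 Ngfr was at 9.01, 9.12 and 9.11 with NT3 against 6.63, 7.33 and 7.73 in LC, and on day 30 at 8.80, 8.22 and 7.92 with NT3 against 6.83, 6.80 and 7.14 in LC. Neither day has any overlap, and on day 90, with 8.64, 7.52 and 8.16 with NT3 against 7.35, 6.86 and 7.03 in LC, there was again none. On day 3 all NT3 arrays were below all LC arrays, and on days 10 and 60 the groups overlapped. NT3 minus LC over all days was 0.84 (SE 0.12, 1.79-fold, n = 18 each, limma adjusted p = 1.12e-06). It was 1.85 on day 20 (SE 0.29, adjusted p = 9.4e-06), 1.39 on day 30 (adjusted p = 0.000863), 0.87 on day 60 (adjusted p = 0.0296) and 1.03 on day 90 (adjusted p = 0.00878). The call of day 60 was lost without LC replicate 3 (0.62), NT3 replicate 1 (0.69) or NT3 replicate 2 (0.74) of that day, and that of day 90 without LC replicate 2 (0.92) or NT3 replicate 1 (0.76). Against uninjured cord the NT3 lesion sites of days 10 to 30 were higher by 2.64 (SE 0.24, 6.22-fold, adjusted p = 1.04e-11).

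Beside the gap Ngfr was less raised. Rostral LC pieces had a lowest, median and highest level of 6.17, 6.75 and 7.01 on days 1 and 3 and caudal LC pieces 5.91, 7.18 and 7.58, and both ranges reach into that of uninjured cord. LC minus uninjured was 0.84 in rostral pieces (SE 0.27, limma adjusted p = 0.00547) and 1.14 in caudal pieces (SE 0.27, adjusted p = 0.000255) on these days, and 0.71 (adjusted p = 0.0133) and 0.73 (adjusted p = 0.0111) on days 10 to 30. Uninjured replicate 1, the lowest of its group at 5.32, decided 3 of these calls. Without it the rostral differences were 0.58 (adjusted p = 0.0945) and 0.45 (adjusted p = 0.186), and the later caudal difference was 0.47 (adjusted p = 0.166). On days 60 and 90 Ngfr was not called on either side, but without uninjured replicate 2 it was, at 0.84 rostrally (adjusted p = 0.0205) and 0.73 caudally (adjusted p = 0.0438). The rostral call was also gained without LC day 60 replicate 3 (0.69, adjusted p = 0.0332).

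Ntrk2, the gene of TrkB (probe set 1383135_at), was lower at the lesion site than in uninjured cord in all 39 arrays. On day 3 its level was 9.99, 8.08 and 7.96 with NT3, 9.03, 9.05 and 9.38 with ET and 9.17, 8.69 and 8.73 in LC, against 11.37, 11.57 and 11.18 in uninjured cord. The first NT3 array of day 3 stood apart from the other 2 of its group. By day 90 the level was 10.81, 10.79 and 10.85 with NT3 against 9.28, 9.25 and 9.89 in LC, so that NT3 lesion sites were between LC lesion sites and uninjured cord with no overlap on either side. LC minus uninjured was -2.51 on day 3 (SE 0.31, 5.68-fold lower, limma adjusted p = 1.45e-08), -2.49 on days 10 to 30 (SE 0.26, adjusted p = 1.72e-10) and -1.68 on days 60 and 90 (SE 0.27, adjusted p = 1.51e-06).

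NT3 minus LC for Ntrk2 at the lesion site was 0.58 over all days (SE 0.13, 1.5-fold, adjusted p = 0.000449), and all NT3 arrays were above all LC arrays on 4 of 6 days. By day it passed on day 20, at 0.91 (SE 0.31, adjusted p = 0.0242), and on day 90, at 1.34 (SE 0.31, adjusted p = 0.00198). The call of day 20 was lost without LC replicate 2 (0.83), LC replicate 3 (0.77) or NT3 replicate 1 (0.81) of that day. Beside the gap Ntrk2 fell on days 1 and 3, by 0.78 in rostral LC pieces (SE 0.11, adjusted p = 9.28e-09) and by 0.73 in caudal LC pieces (SE 0.10, adjusted p = 4.63e-08), and on days 60 and 90 it stood above uninjured cord, by 0.34 (adjusted p = 0.00593) and 0.39 (SE 0.10, adjusted p = 0.00134). The rostral late call was lost without uninjured replicate 3 (0.24, adjusted p = 0.0933). Not all probe sets of Ntrk2 showed it: 1 of the other tested probe sets (1368972_at) was lower in rostral LC pieces of days 60 and 90, by -0.65 (adjusted p = 0.00073). All 4 tested Ntrk2 probe sets were lower in LC lesion sites than in uninjured cord in all 3 periods. NT3 minus LC there was 0.60 and 0.35 in 2 of the others and 0.19 (adjusted p = 0.12) in the last.

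Ntrk3, the gene of TrkC, the receptor of the protein in the tube (probe set 1368939_a_at), was below the lowest uninjured array in all injured arrays of the series. At the lesion site on day 3 its level was 5.87, 4.90 and 5.33 with NT3, 5.09, 5.06 and 5.37 with ET and 5.50, 5.96 and 5.09 in LC, against 7.57, 7.79 and 7.67 in uninjured cord. Ntrk3 passed the filter level (6.49 to 6.60) in 127 arrays, but in no injured array of day 3 at the lesion site. LC minus uninjured was -2.16 there on day 3 (SE 0.24, 4.46-fold lower, limma adjusted p = 1.27e-09), -1.88 on days 10 to 30 (SE 0.20, adjusted p = 2.31e-10) and -1.13 on days 60 and 90 (SE 0.21, adjusted p = 1.23e-05). In rostral LC pieces it was -1.10 on days 1 and 3 (SE 0.14, adjusted p = 2.56e-09), -0.84 on days 10 to 30 (SE 0.13, adjusted p = 5.4e-07) and -0.43 on days 60 and 90 (SE 0.14, adjusted p = 0.00939).

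In caudal LC pieces Ntrk3 fell by 0.57 (SE 0.21, adjusted p = 0.0139), 0.75 (SE 0.20, adjusted p = 0.000907) and 0.52 (SE 0.21, adjusted p = 0.0311) in the same periods. Without uninjured replicate 2 the first caudal call (-0.52, adjusted p = 0.0609), the last caudal call (-0.46, adjusted p = 0.114) and the last rostral call (-0.37, adjusted p = 0.0604) were lost. The last caudal call was also lost without uninjured replicate 3 (-0.52), LC day 60 replicate 1 (-0.46) or LC day 90 replicate 3 (-0.49). With NT3 the lesion site level on day 20 was 6.65, 6.94 and 6.63 against 5.63, 5.80 and 5.64 in LC, and on day 90 it was 7.44, 6.97 and 7.15 against 6.78, 6.35 and 6.69 in LC. All NT3 arrays were above all LC arrays on these 2 days and on no other. NT3 minus LC over all days was 0.25 (SE 0.10, limma adjusted p = 0.0375), the smallest of the called differences among the members in this comparison. It was lost in 16 of 36 fits with 1 array left out, where it lay between 0.21 and 0.25, and without the 3 arrays that stood apart (0.21, adjusted p = 0.0965). It was also lost with RT1-CE10 as a covariate (0.22, adjusted p = 0.279) and when the compared groups were fitted alone (0.25, adjusted p = 0.0503). On day 20 it was 1.05 (SE 0.24, adjusted p = 0.000927).

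Gfra1, the gene of the GDNF co-receptor (probe set 1387007_at), was raised beside the gap and separated NT3 from LC lesion sites on more days than any other member. In caudal pieces all 21 NT3 and all 21 LC arrays, and in rostral pieces all 21 LC arrays, lay above the highest uninjured array. The lowest, median and highest levels of LC pieces were 8.64, 8.80 and 9.18 rostrally and 8.75, 8.89 and 9.08 caudally, against 8.44, 8.48 and 8.62 in uninjured cord. The size was modest: LC minus uninjured ran from 0.24 (days 60 and 90, limma adjusted p = 0.0113) to 0.41 (days 10 to 30, adjusted p = 1.1e-05) rostrally and from 0.37 (days 10 to 30, adjusted p = 1.51e-05) to 0.44 (days 1 and 3, adjusted p = 1.94e-06) caudally. The smallest of these was lost without uninjured replicate 3 (0.20, adjusted p = 0.0696).

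Lesion site levels of Gfra1 on day 3 were 8.04, 7.89 and 7.40 with NT3 and 7.90, 7.79 and 7.99 with ET, against 8.69, 8.88 and 8.28 in LC. On day 20 they were 9.44, 9.47 and 9.41 with NT3 against 8.02, 8.15 and 8.34 in LC, and on day 90 they were 8.69, 8.56 and 8.69 with NT3 against 8.26, 7.85 and 8.31 in LC. All NT3 arrays were below all LC arrays on day 3 and above them on the 5 later days. NT3 minus LC was -0.84 on day 3 (SE 0.14, adjusted p = 9.6e-05), 1.27 on day 20 (2.41-fold, adjusted p = 3.24e-08), 1.07 on day 30 (adjusted p = 1.69e-06), 0.85 on day 60 (adjusted p = 0.0001) and 0.50 on day 90 (adjusted p = 0.00887), with 0.55 as the mean of days (SE 0.06, adjusted p = 6.15e-09). The call of day 90 was lost without LC replicate 2 of that day (0.36, adjusted p = 0.0969). ET minus LC on day 3 was -0.72 (SE 0.14, adjusted p = 0.000502).

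Against uninjured cord the lesion site Gfra1 level was lower in LC on days 60 and 90, by -0.39 (SE 0.12, adjusted p = 0.00526), and higher with NT3 on days 10 to 30, by 0.84 (SE 0.12, adjusted p = 8.96e-08). The NT3 difference of days 60 and 90 passed too (0.29, SE 0.12, adjusted p = 0.0386) but was lost in 6 of 9 fits with 1 array left out, where it lay between 0.25 and 0.28. The direction in LC depends on the probe set. The other Gfra1 probe set (1367954_at) was higher in LC lesion sites than in uninjured cord on days 10 to 30, by 0.69 (adjusted p = 3.6e-06), where the one used here differed by -0.08, and on days 60 and 90 it differed by 0.26 (adjusted p = 0.0583). For NT3 minus LC the probe sets had the same sign, with 0.31 (adjusted p = 8.88e-05) in the other.

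Ret, the gene of the receptor kinase that GDNF and GFRα1 engage (probe set 1370989_at), had the widest range of levels among the 8 genes at the lesion site. On day 3 its level was 8.08, 5.00 and 5.79 with NT3, 7.23, 7.04 and 7.38 with ET and 8.18, 9.26 and 6.90 in LC, against 9.62, 9.80 and 9.58 in uninjured cord. On day 20 it was 9.64, 10.21 and 9.95 with NT3 against 6.59, 6.06 and 7.24 in LC, and on day 90 it was 10.37, 9.41 and 10.03 with NT3 against 8.30, 7.38 and 8.07 in LC. All 18 LC lesion sites were below the lowest uninjured array, whereas 6 of the 18 NT3 lesion sites were above the highest uninjured array and 11 below the lowest. All NT3 arrays were above all LC arrays on 4 of 6 days.

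LC minus uninjured for Ret was -1.55 on day 3 (SE 0.59, 2.94-fold lower, limma adjusted p = 0.0185), -2.42 on days 10 to 30 (SE 0.48, 5.36-fold lower, adjusted p = 3.39e-05) and -1.57 on days 60 and 90 (SE 0.51, adjusted p = 0.00655). The call of day 3 was lost without LC day 3 replicate 3 (-0.95, adjusted p = 0.175). NT3 minus LC over all days was 1.07 (SE 0.24, 2.1-fold, adjusted p = 0.000546), the largest difference among the tested members in that comparison. By day it was -1.82 on day 3 (SE 0.59, adjusted p = 0.0296), 9.87-fold higher on day 20 (adjusted p = 5.49e-05), 1.94 on day 60 (adjusted p = 0.0172) and 2.02 on day 90 (adjusted p = 0.0108). The call of day 3 was lost in 4 of the 6 fits that left out an array of that day, with -1.79 without LC replicate 1, -1.25 without LC replicate 2, -1.18 without NT3 replicate 2 and -1.57 without NT3 replicate 3. Those of the later days were lost without LC replicate 3 (1.36) or NT3 replicate 2 (1.65) on day 60 and without LC replicate 2 (1.75) or NT3 replicate 1 (1.80) on day 90. On days 60 and 90 NT3 lesion sites differed from uninjured cord by 0.41, with a 95% interval of -0.63 to 1.45 (adjusted p = 0.476). The other 2 Ret probe sets gave NT3 minus LC at the lesion site as 0.48 and 0.90, both called. Beside the gap Ret levels stayed near uninjured cord, and the one called difference of LC was 0.37 in caudal pieces of days 1 and 3 (SE 0.11, adjusted p = 0.00344).

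**Figure D3:**
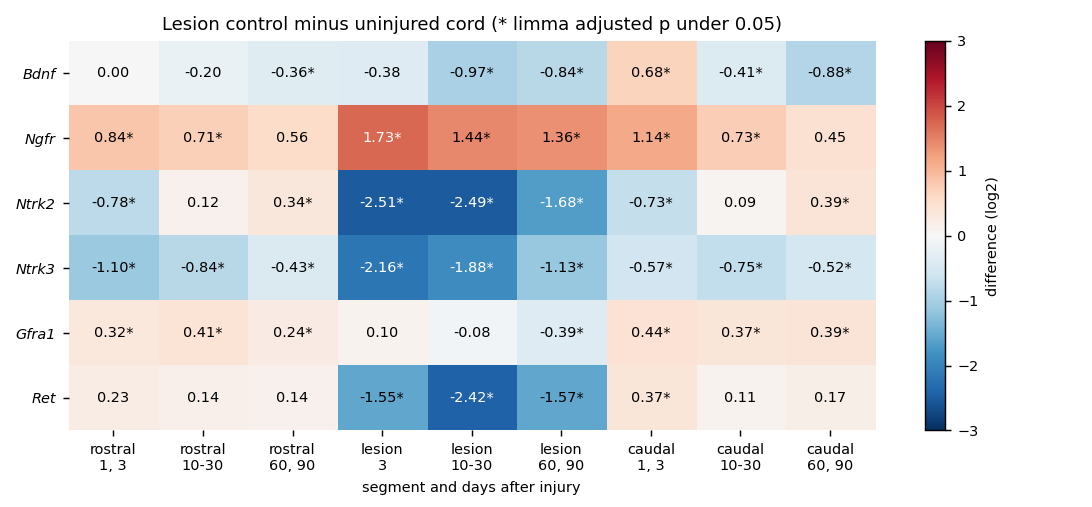
Differences in log2 level between LC and uninjured cord for the 6 tested members (rows) in each segment and period (columns), as a colour scale with the value printed in each cell and an asterisk where the limma adjusted p was under 0.05. Ntrk3 is negative in all 9 columns, Ngfr is positive in all 9, and the largest negative values are those of Ntrk2, Ntrk3 and Ret at the lesion site.

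The comparison of LC with uninjured cord sets transected cord without a tube against uninjured cord. RNA quality was read as the beta-actin level at the 3-prime end minus that at the 5-prime end. The mean of group means was 1.72 in uninjured cord, against 1.07 in rostral, 1.17 in lesion site and 1.00 in caudal LC arrays. Uninjured arrays ran from 1.35 to 2.29. LC arrays ran from 0.83 to 1.81 rostrally, 0.69 to 1.59 at the lesion site and 0.77 to 1.48 caudally, so the ranges overlap. The part of this measure in the differences was not tested beyond a covariate among the alternatives. All 9 forms of the comparison use the same 3 uninjured arrays. Of the 6 tested members, 4 were called in rostral pieces on days 1 and 3, where 67.7% of all tested genes were called, 3 on days 10 to 30 (60.5% of all genes) and 4 on days 60 and 90 (53.6%). Without uninjured replicate 3 the last of these counts was 1. In lesion sites 4 were called on day 3 (74.3% of all genes), 5 on days 10 to 30 (79% of all genes) and 6 on days 60 and 90 (75.4%). In caudal pieces 6 were called on days 1 and 3 (65% of all genes), 4 on days 10 to 30 (61.7%) and 4 on days 60 and 90 (56.6%). Most genes of the array were called in these comparisons, and the members' shares lie near that background. The median difference of the 6 members was -0.97, -1.42 and -0.98 at the lesion site in the 3 periods, beside 0.08, 0.07 and 0.06 over all tested genes.

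Beside the gap RT1-CE10 lay above 9 in all LC arrays of days 1, 30 and 90 and some of day 3, and in no uninjured array. Its covariate was estimated there from the LC arrays of day 3 alone, so lost calls do not show dependence on it. With it as a covariate the rostral calls of Ngfr (0.84, adjusted p = 0.0764) and Gfra1 (0.15, adjusted p = 0.279) on days 1 and 3 and of Ntrk2 (0.19, adjusted p = 0.259) and Gfra1 (0.12, adjusted p = 0.383) on days 60 and 90 were lost in this comparison. Caudally those of Ntrk3 (-0.74, adjusted p = 0.092) and Ret (0.25, adjusted p = 0.309) on days 1 and 3 and of Ntrk3 on days 60 and 90 (-0.62, adjusted p = 0.0614) were lost as well.

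In LC the lesion site was also set against the mean of its rostral and caudal neighbours on the same days. Of the 6 members, 4 were called on day 3 (62.2% of all genes), 6 on days 10 to 30 (81.6%) and 5 on days 60 and 90 (77%). Ntrk2 had differences of -1.81 (SE 0.17), -2.60 (SE 0.10) and -2.05 (SE 0.12) and Ret of -1.78 (SE 0.29), -2.55 (SE 0.17) and -1.72 (SE 0.21) in the 3 periods, and both were called by limma in each. Ngfr was higher at the lesion site by 0.72 on days 10 to 30 (adjusted p = 1.55e-05) and by 0.85 on days 60 and 90 (adjusted p = 2.98e-05). Gfra1 was lower there in all 3 periods, by -0.26, -0.47 and -0.70, and its call on day 3 was lost without LC day 3 replicate 3 (-0.10, adjusted p = 0.435). Bdnf was not called on day 3 but was without LC day 3 replicate 2 (-0.60, adjusted p = 0.0022). On days 60 and 90 it was called without caudal day 60 replicate 1 (-0.27) or lesion site day 60 replicate 2 (-0.30). Rostral minus caudal LC pieces had 2 called members on days 1 and 3 (2.49% of all genes called), Bdnf and Ntrk3, 0 on days 10 to 30 (0.0664%, limma, 1 member at an unadjusted p under 0.05) and 1, Bdnf, on days 60 and 90 (1.16%). Ntrk3 on days 1 and 3 was lower rostrally by -0.53 (SE 0.15, adjusted p = 0.037), a call lost in 8 of 12 fits with 1 array left out: caudal day 1 replicate 2 or 3, caudal day 3 replicate 1 or 2, rostral day 1 replicate 2 or 3, and rostral day 3 replicate 1 or 3. In these 8 the difference ran from -0.56 to -0.47. It was also lost with RT1-CE10 as a covariate (-0.46, adjusted p = 0.157) and when these groups were fitted alone (adjusted p = 0.154).

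Levels in LC changed with the day for 4 of the 6 members in each segment by the F-test of limma: Bdnf, Ntrk2, Ntrk3 and Ret rostrally (72.5% of all genes called), Bdnf, Ntrk2, Ntrk3 and Gfra1 at the lesion site (70.6%) and Bdnf, Ntrk2, Ngfr and Ret caudally (73.3%). Bdnf and Ntrk2 were the members called in all 3 segments. In caudal pieces their adjusted p-values were 1.84e-14 for Bdnf and 1.32e-13 for Ntrk2. The rostral call of Ret was lost without LC day 60 replicate 2 or day 90 replicate 1 or 3. Lesion site calls were lost for Bdnf without LC day 3 replicate 2 (adjusted p = 0.0792) and for Ntrk2 without LC day 60 replicate 2 (adjusted p = 0.0504). Calls were gained for Ret at the lesion site without LC day 3 replicate 3 (adjusted p = 0.0376) or day 60 replicate 3 (adjusted p = 0.0359). Rostral Gfra1 gained one without LC day 10 replicate 2 (adjusted p = 0.0325) or day 20 replicate 3 (adjusted p = 0.0216).

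**Figure D4:**
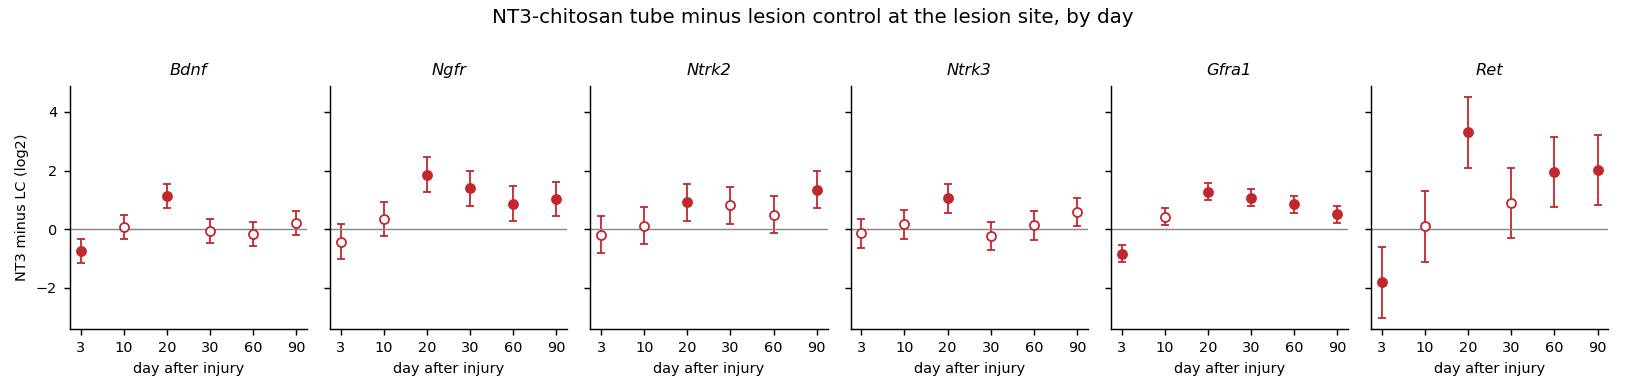
Difference in log2 level between NT3 and LC lesion sites for the 6 tested members on each day from 3 to 90. Points are limma estimates with 95% intervals, filled where the adjusted p was under 0.05. Bdnf, Gfra1 and Ret are called below 0 on day 3, and all 6 members are called above 0 on day 20.

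The comparison of NT3 with LC asks what the loaded tube adds to transection. At the lesion site 5 of the 6 members were called over the mean of days, where 41.9% of all tested genes were called: Ntrk2, Ntrk3, Ngfr, Gfra1 and Ret, each higher with NT3. The median of the 6 members was 0.56, beside -0.01 over all tested genes. The NT3 minus LC difference changed with the day for all 6 members by the F-test of limma (50.6% of all genes called), and for Ntrk2 this was lost in 15 of 36 fits with 1 array left out. With RT1-CE10 as a covariate it was lost for Ntrk2 (adjusted p = 0.0753) and Ntrk3 (adjusted p = 0.0504). By single day, a division chosen after the test by day was seen, 3 members were called on day 3 (17.8% of all genes), 0 on day 10 (5.22%, limma, 1 member at an unadjusted p under 0.05), 6 on day 20 (33.5%), 2 on day 30 (18.1%), 3 on day 60 (25.7%) and 4 on day 90 (28.8%). Leaving out 1 array brought the counts of days 3, 60 and 90 down to 1: LC replicate 2 on day 3, LC replicate 3 or NT3 replicate 2 on day 60, and LC replicate 2 on day 90.

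The days 3, 20 and 90 are those on which RT1-CE10 differed between NT3 and LC lesion sites. With it as a covariate all 4 calls of day 90 were lost, where the differences were 1.33 for Ntrk2 (adjusted p = 0.0904), 1.03 for Ngfr (adjusted p = 0.169), 0.46 for Gfra1 (adjusted p = 0.208) and 2.39 for Ret (adjusted p = 0.102). RT1-CE10 lay above 9 in 0 of 3 NT3 and 3 of 3 LC arrays of day 90, so it cannot be told apart from the group there. On day 20 the covariate left 5 members, without Ntrk2 (0.90, adjusted p = 0.102), and on day 3 it left Gfra1 (-0.87), without Bdnf (-0.64, adjusted p = 0.109) and Ret (-1.57, adjusted p = 0.202). Over the mean of days Ntrk2 (0.57), Ngfr (0.84), Gfra1 (0.53) and Ret (1.22) were called with this covariate. On day 3 the 3 calls were lower with NT3, and when the 2 groups of that day were fitted alone none of the 3 passed. Without NT3 day 3 replicate 1, Ntrk2 was lower too (-0.85, adjusted p = 0.00871). In the comparison of NT3 lesion sites with uninjured cord, also added later, 6 members were called on day 3 (76.7% of all genes), 5 on days 10 to 30 (77.5%) and 5 on days 60 and 90 (71.9%). Ret was the member not called in the last 2. On days 10 to 30 it was called without NT3 day 10 replicate 1 (-1.13) or day 30 replicate 1 (-1.09), and on days 60 and 90 Ntrk2 was lost without uninjured replicate 2 (-0.67, adjusted p = 0.0629).

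Beside the gap little was called. In rostral pieces 1 member, Bdnf, was called in NT3 minus LC (2.77% of all genes), and Ntrk3 had 0.20 (SE 0.06, limma adjusted p = 0.0612). Ntrk3 passed in 5 of the 42 fits with 1 array left out, at 0.21 to 0.23. In caudal pieces 0 members were called (9.76% of all genes, limma, 2 members at an unadjusted p under 0.05), and Ntrk2 passed in 3 of the 42 fits with 1 array left out, at 0.13 to 0.14. The change of NT3 minus LC with the day was called for 0 members rostrally (28.2% of all genes, limma, 2 members at an unadjusted p under 0.05) and for Bdnf and Gfra1 caudally (7.18%), both lost with RT1-CE10 as a covariate (for Gfra1, adjusted p = 0.332). Rostrally Ntrk2 passed in 12 of the 42 fits with 1 array left out, Gfra1 in 3, and Bdnf and Ngfr in 1 each, and caudally Ngfr passed in 1. Gfra1 of caudal pieces was at 9.24, 9.22 and 9.16 with NT3 on day 10 against 8.75, 8.97 and 8.95 in LC, and at 8.62, 8.75 and 8.90 with NT3 on day 1 against 8.93, 8.84 and 9.08 in LC. The difference between segments was tested itself. NT3 minus LC at the lesion site exceeded its mean in the neighbours for 4 members (31.1% of all genes called): by 0.55 for Ntrk2 (SE 0.10, adjusted p = 1.85e-06), 0.52 for Ngfr (SE 0.15, adjusted p = 0.00532), 0.44 for Gfra1 (SE 0.05, adjusted p = 2.94e-11) and 1.02 for Ret (SE 0.17, adjusted p = 3.28e-07). The rostral value of NT3 minus LC less the caudal value was called for 0 members (0.108% of all genes, limma, 1 member at an unadjusted p under 0.05).

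The empty tube separates the tube from the protein, and its lesion site arrays exist for day 3 alone. On later days the tube and the protein cannot be told apart at the lesion site. NT3 minus ET in rostral pieces was called for 5 members, where 30.2% of all genes were called: Bdnf (given above), Ntrk2 by 0.14 (SE 0.05, limma adjusted p = 0.0211), Ntrk3 by 0.25 (SE 0.06, adjusted p = 0.00189), Gfra1 by 0.10 (SE 0.04, adjusted p = 0.0242) and Ret by 0.21 (SE 0.06, adjusted p = 0.00855). Ntrk3 was the clearest by array, with all NT3 pieces above all ET pieces on 5 of 7 days. Its lowest, median and highest rostral levels were 6.28, 7.08 and 7.43 in NT3, against 6.23, 6.90 and 7.15 in ET. In the same comparison all 9 neuron markers were higher with NT3 (median 0.30) and all 6 fibroblast markers lower (median -0.61), beside 17.4% of all tested genes called higher and 12.8% lower, and their part in the result was not tested. The Ntrk2 call was lost without ET day 10 replicate 1 (0.12, adjusted p = 0.0696), and Gfra1 differed by 0.08 (adjusted p = 0.0622) when each array was scaled to its 75th percentile.

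NT3 minus ET was called for 0 members in caudal pieces (8.38% of all genes, limma, 0 members at an unadjusted p under 0.05) and for 0 at the lesion site on day 3 (7.23%, 0 members at an unadjusted p under 0.05). The intervals at the lesion site were wide: for Ret the difference was -0.93 with a 95% interval of -2.13 to 0.27. NT3 day 3 replicate 1 weighed on it, since without this array Ntrk2 (-1.13, adjusted p = 0.00196) and Ret (-1.82, adjusted p = 0.0261) were both called as lower with NT3. ET minus LC was called for 0 members rostrally (22.8% of all genes, limma, 1 member at an unadjusted p under 0.05), for 0 caudally (3.5%, 2 members at an unadjusted p under 0.05) and for 2 at the lesion site on day 3 (23.2%), Bdnf and Gfra1, both lower with the empty tube. The NT3 and ET comparisons with LC share the LC arrays, and on day 3 both tube groups had lower Gfra1 than LC at the lesion site.

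Markers of several cell types moved with the NT3 difference at the lesion site. The marker lists given here are a selection. Those of astrocytes, oligodendrocyte precursors, microglia and macrophages, fibroblasts, motor neurons and endothelium were also read but are not described for this comparison. In NT3 minus LC over all days, 6 of 6 dorsal root ganglion neuron markers (median 1.00), 7 of 9 neuron markers (median 0.97), 6 of 6 oligodendrocyte markers (median 0.67), 6 of 6 skeletal muscle markers (median 2.03) and 1 of 3 Schwann cell markers were called higher, beside 19% of all tested genes called higher and 22.9% lower. The mean level of the dorsal root ganglion markers had a lowest, median and highest value of 6.39, 8.46 and 9.98 in NT3 lesion sites and 6.47, 7.35 and 9.04 in LC lesion sites, against 6.88 to 7.02 in uninjured cord. That of the neuron markers was 7.37, 9.05 and 10.02 in NT3 and 7.26, 8.06 and 9.43 in LC, against 11.81 to 11.84 in uninjured cord. For skeletal muscle it was 6.37, 8.18 and 11.09 in NT3 and 4.98, 6.14 and 9.28 in LC, against 5.84 to 5.92 in uninjured cord. On day 20, when all 6 members were called, 6 of 6 dorsal root ganglion markers (median 2.80), 5 of 9 neuron markers (median 2.23), 4 of 6 muscle markers (median 3.18) and 3 of 3 Schwann cell markers (median 1.16) were called higher with NT3, beside 14.2% of all tested genes. With the muscle marker mean as a covariate, NT3 minus LC over all days was 0.81 for Ntrk2 (0.58 without it), 0.53 for Ntrk3 (0.25), 0.88 for Ngfr (0.84), 0.58 for Gfra1 (0.55) and 1.75 for Ret (1.07). With group means in the model, this covariate is estimated only from the spread between arrays of a group. These values therefore do not settle the part of muscle. The part of muscle and of the other marker lists in the members' differences was not tested.

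The other genes of the 2 systems were read from 5 lists of fixed membership. Among receptors and co-receptors (11 tested of 15 listed), 9 were lower in rostral LC pieces on days 1 and 3 and 0 higher (median -0.90, beside 0.03 over all tested genes, of which 67.7% were called). At the lesion site on days 10 to 30 there were 8 lower and 2 higher (median -2.11, beside 0.07 and 79% called). In NT3 minus LC at the lesion site 10 of the 11 were higher and 1 lower (median 0.47, beside -0.01 over all tested genes, of which 41.9% were called). Sorl1, a sorting receptor, had -3.69 in LC lesion sites of days 10 to 30 relative to uninjured cord (SE 0.25) and 0.66 in NT3 relative to LC (SE 0.12). Sort1, whose product sortilin pairs with p75 to bind neurotrophin precursors, had -2.66 (SE 0.16) and 0.47 (SE 0.08) in these comparisons. Gfra3, the co-receptor of artemin, was higher with NT3 by 0.73 (SE 0.10), and Gfra2, that of neurturin, by 0.51 (SE 0.05), all called by limma.

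Among the processing enzymes (7 tested of 9 listed), 6 were higher and 1 lower in LC lesion sites on days 10 to 30 (median 1.40, beside 0.07 over all tested genes, of which 79% were called). Mmp3 and Mmp7, matrix metalloproteinases that can cleave neurotrophin precursors, rose by 5.71 (SE 0.45) and 4.53 (SE 0.24). With NT3, Mmp3 was lower than in LC by -3.40 (SE 0.23, limma adjusted p = 2.43e-13), the largest difference among all listed genes in that comparison, and Plat, the tissue plasminogen activator, by -0.38 (SE 0.06). Of the 7 enzymes 1 was higher and 3 lower with NT3, where 41.9% of all tested genes were called. Among the other ligands (4 tested of 8 listed), 3 were higher in rostral and in caudal LC pieces on days 1 and 3 (medians 1.06 and 1.15, beside 0.03 and 0.02 over all tested genes, of which 67.7% and 65% were called). In NT3 minus LC at the lesion site 0 were called over the mean of days (limma, 41.9% of all genes), but for 3 of the 4 the difference changed with the day (F-test, 50.6% of all genes). By single day 1 was called lower on day 3, 1 higher on day 20, 1 lower on day 60, and 1 higher and 1 lower on day 90.

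The adaptors and relays (19 tested of 24 listed) were mixed: 5 were higher and 10 lower in LC lesion sites on days 10 to 30 (median -0.33), and 3 were higher and 6 lower with NT3. Over all tested genes 79% and 41.9% were called in these comparisons, and the shares of the list lie near them. Shc1, an adaptor that binds activated Trk and RET kinases, rose in LC lesion sites by 2.88 (SE 0.11), and Sh2b2, a further adaptor of receptor kinases, was lower with NT3 by -0.59 (SE 0.09). Of the 10 target genes, 8 were higher and 1 lower in rostral LC pieces on days 1 and 3 (median 0.91, beside 0.03 over all tested genes, of which 67.7% were called). In NT3 minus LC at the lesion site 4 were higher and 1 lower (median 0.11, beside -0.01 and 41.9% called). Npy, the gene of neuropeptide Y, had 0.82 there (SE 0.12) and Vgf, a gene of a secreted peptide precursor that neurotrophins induce, 0.60 (SE 0.12). Egr2, a transcription factor of myelinating Schwann cells, rose in LC lesion sites on days 10 to 30 by 3.62 (SE 0.15).

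Each member's pattern over the 56 group means was set against all tested genes by Pearson's r, as a description over groups that share segments, days and arrays. The 3 genes most like Ret were Stmn2 (0.967), Nefm (0.957) and Nefl (0.952), all of them genes of the neuronal cytoskeleton. Those most like Ntrk2 were Slc38a1 (0.984), Ntsr2 (0.983) and Rfx4 (0.983), and those most like Ntrk3 were Epha4 (0.935), Ngrn (0.932) and Nicn1 (0.923). Bdnf was closest to Nsdhl (0.840), Acat2 (0.835) and Hsd17b7 (0.824), which take part in sterol and lipid synthesis. Ngfr was closest to Arhgap28 (0.851), Thbs4 (0.845) and Dhh (0.844), the last a ligand that Schwann cells secrete. Gfra1 was closest to Dcx (0.793), Prph (0.734) and LOC100912188 (0.725), and the dim gene Ntf3 to Tns1 (0.900), Card10 (0.887) and Lbh (0.884). Gdnf had weaker matches, with Tfip11 (0.762) first. Among the members themselves the highest values joined Ntrk2 and Ret (0.84), Ntrk2 and Ntrk3 (0.83) and Ntrk3 and Ret (0.82), and the lowest joined Ntrk3 with the dim gene Gdnf (-0.64) and, among the tested members, Ntrk2 with Ngfr (-0.55).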

How the data were processed

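RNA of rat spinal cord pieces was measured on Affymetrix arrays, 1 array per sample. The authors deposited log2 values, made with RMA in Affymetrix Expression Console from images taken with GCOS, per the submitters' processing notes. Which arrays were normalised together is not given in the sources used here. The values were used as deposited. A single gene symbol was listed for 20832 of the 31099 probe sets and none for 9831. The 436 with more than one symbol were not used. Names and promoter sequences come from RefSeq on the assembly GRCr8.

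Each of 14218 genes was represented by its probe set of highest mean. Tests covered the 12041 genes, 6 of the 8 members among them, that exceeded the 40th percentile of an array on 3 or more arrays. Means per group were estimated in limma 3.58.1 (R 4.3.3). Each segment had a fit of its own together with the uninjured arrays. Comparisons of the lesion site with its neighbours used all arrays in a single fit. Comparisons of rostral with caudal pieces used the rostral, caudal and uninjured arrays. Two-sided moderated p-values received the Benjamini-Hochberg adjustment across all genes tested, with a threshold of 0.05. Change with the day was a moderated F-test. The steps were tested on simulated data.

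The members, the lists of pathway and marker genes, the 3 arrays that stood apart and the alternatives were chosen with earlier results of these data known. All 8 members are named. Of the pathway lists, up to 4 called genes with the largest differences in a comparison are named by rule. Of all genes, the 3 most like each member are named. Sort1, Gfra2, Plat, Shc1, Sh2b2 and Vgf were named after their values were seen. Comparisons with LC share the LC arrays and those with uninjured cord share its 3 arrays, so no overlap between them was computed. Replicate numbers of the labels were taken as names. Deviations from group means correlated with a median of 0.114 between rostral and caudal arrays of the same number (62 pairs) and -0.017 between NT3 and LC lesion sites (17 pairs).

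Alternatives were other filters, quantile and 75th percentile scaling, the mean of probe sets, other sets of arrays in the fit, array weights, and a trended and robust prior. Further ones were a replicate block, covariates for beta-actin, skeletal muscle markers and RT1-CE10, and each array left out. The single days at the lesion site, NT3 against uninjured cord and every probe set on its own were added after seeing the data.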

Additional observations from a re-analysis of the deposited data

Results flagged for a closer look

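At the lesion site the difference of NT3 minus LC changed with the day for all 6 tested members (F-test of limma), with adjusted p-values of 0.000194 for Bdnf, 0.0411 for Ntrk2, 0.0160 for Ntrk3, 0.000726 for Ngfr, 3.31e-08 for Gfra1 and 0.000219 for Ret. On day 3 the differences of Bdnf, Gfra1 and Ret were negative and called, and on day 20 all 6 were positive and called. In caudal pieces the same F-test passed for Bdnf (adjusted p = 0.0348) and Gfra1 (adjusted p = 0.0175). NT3 minus LC differed between the lesion site and the mean of its neighbours, by 0.55 for Ntrk2, 0.52 for Ngfr, 0.44 for Gfra1 and 1.02 for Ret, all called by limma.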

How the results depend on the processing

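The counts of called members kept within 1.5 times their value in 524 of 570 fits with another setting and in 839 of 916 fits with 1 array left out. The single members kept their side of the threshold, and where called their direction, in 3217 of 3379 and in 5324 of 5496 such fits. A change of sign in a member called in neither fit was not counted, and F-tests have no direction. Among differences called in at least 1 of the 2 fits, 1 direction reversed. With the mean of its probe sets, Gfra1 in LC lesion sites of days 10 to 30 was 0.31 above uninjured cord (limma adjusted p = 0.0117). Array weights gave 5 members for LC minus uninjured in rostral pieces of days 10 to 30, 3 for NT3 minus LC rostrally and 1 caudally. They gave 2 for NT3 minus ET at the lesion site, 2 for ET minus LC rostrally, and 2 for rostral minus caudal on days 60 and 90. For the change of NT3 minus LC with the day they gave 6 both rostrally and caudally, and for NT3 minus LC at the lesion site 2 on day 10 and 4 on day 30. RT1-CE10 as a covariate left 2 and 2 members in rostral pieces on days 1 and 3 and on days 60 and 90 and 3 in caudal pieces on days 1 and 3 for LC minus uninjured. The same covariate gave 2 for NT3 minus LC rostrally, 1 for ET minus LC at the lesion site and 1 for rostral minus caudal on days 1 and 3. It gave 1 rostrally and 0 caudally for the change of NT3 minus LC with the day, and 1 on day 3 and 0 on day 90 for NT3 minus LC at the lesion site. One fit of all arrays gave 1 member rostrally on days 60 and 90 for LC minus uninjured, and 0 for NT3 minus LC and 3 for NT3 minus ET rostrally. It gave 1 for rostral minus caudal on days 1 and 3, and 1 on day 10 and 4 on day 30 for NT3 minus LC at the lesion site. Fitting the compared groups alone gave 0 for NT3 minus LC rostrally, 1 for ET minus LC at the lesion site, 0 for rostral minus caudal on days 1 and 3 and 0 for NT3 minus LC on day 3. The beta-actin covariate gave 2 for LC minus uninjured rostrally on days 60 and 90 and 2 caudally on days 10 to 30. For NT3 minus LC rostrally, the mean of probe sets, no filter and quantile normalisation each gave 0, and quantile normalisation gave 3 for NT3 minus ET. The mean of probe sets gave 0 for rostral minus caudal on days 60 and 90, and 2 rostrally and 1 caudally for the change of NT3 minus LC with the day. That rostral change gave 1 member each without the 3 arrays that stood apart, with the 60th percentile filter, with 75th percentile scaling and with the trended prior. The 60th percentile filter gave 1 for rostral minus caudal on days 1 and 3, leaving out the 3 arrays gave 2 for NT3 minus ET at the lesion site, and the muscle covariate gave 2 for NT3 minus uninjured on days 60 and 90. The causes were not tested.

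With 1 array left out, counts ran from 1 to 4 for LC minus uninjured in rostral pieces of days 60 and 90, from 0 to 2 for NT3 minus LC rostrally and 0 to 1 caudally. They ran from 0 to 2 for NT3 minus ET and 1 to 2 for ET minus LC at the lesion site, and from 1 to 2 and 0 to 1 for rostral minus caudal in the early and late period. They ran from 0 to 2 rostrally and 1 to 3 caudally for the change of NT3 minus LC with the day. For NT3 minus LC at the lesion site they ran from 1 to 4 on day 3, 1 to 3 on day 60 and 1 to 4 on day 90.

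The labels do not say whether same-numbered arrays share an animal, and not every same-numbered pair deviated together: correlations passed 0.1 in 32 of 62 rostral and caudal pairs, 18 of 38 lesion site and rostral pairs, 14 of 38 lesion site and caudal pairs and 7 of 17 NT3 and LC lesion site pairs. Between NT3 and LC arrays of the same number beside the gap, correlations passed 0.1 in 8 of 21 rostral and 5 of 21 caudal pairs. These correlations cannot show whether same-numbered arrays share an animal. The main fits did not use the numbers as a pairing, and tests between segments treat the arrays as independent there. The replicate block took the number within a segment, and between segments it took same-numbered arrays of a group and day as 1 animal. With this replicate block no count moved by more than 1.5 times, and the call of Ntrk3 in NT3 minus LC at the lesion site was lost (0.24, adjusted p = 0.0525). The number of arrays, 2 or 3 in a group and 3 uninjured in all, limits every comparison. The signals of Ntf3 and Gdnf, below the filter on all arrays, limit what can be said of these ligands.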

Other observations

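Pathway genes outside the main comparisons of the members also moved with the period. In rostral LC pieces of days 60 and 90, Gdf15, a distant relative of the GDNF ligands whose receptor GFRAL signals through RET, was 2.13 above uninjured cord, and in caudal pieces it was 1.72 above. In LC pieces of days 1 and 3 Fos, an immediate early gene, was 2.27 higher rostrally and 2.19 higher caudally, and Mmp3 was 3.46 and 3.50 higher. In rostral NT3 pieces relative to ET pieces Mmp3 was lower by -0.60, Egr2 by -0.39 and Egr1 by -0.30, while Sorcs3, a sortilin relative, was higher by 0.30. All these differences are on the log2 scale and were called by limma.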
